A study of Mus musculus with 6 samples.

Results

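The genes that build cholesterol and fatty acids were followed in whole mouse lungs that did or did not carry a TNF transgene. The set was 36 genes with a known step in the pathway, chosen with earlier results of these data known, out of 49568 gene symbols in the count table. All 36 passed the filter on low counts, so each has a test. The lungs came from 4-month-old female mice on a C57BL/6 background. The TNF+ mice were TNF-Tg animals with a copy of the human TNF-α gene, and the TNF- mice were their wild type (WT) littermates. There were 3 TNF+ and 3 TNF- lungs, sequenced as poly(A)-selected RNA in single-end reads. The TNF+ mice, all of a single transgenic line, are a model that also develops arthritis. Each library mixed all cells of a lung, so that fewer cells of a type and less RNA per cell cannot be told apart.

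Cholesterol is made from acetyl-CoA through mevalonate, squalene and lanosterol. Fatty acids are made from the same acetyl-CoA by acetyl-CoA carboxylase and fatty acid synthase, after which elongases lengthen the chain and desaturases put in double bonds. Many genes of both routes are switched on by the SREBP transcription factors, which are held in the endoplasmic reticulum with SCAP by the INSIG proteins when sterol is plentiful and are cut free in the Golgi when it is scarce. In lung, alveolar type 2 cells use the fatty acid route heavily, because surfactant is mostly phospholipid.

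Total counts ran from 25396923 to 32529408 per lung. A count of 3 in a library, the limit below which a gene was taken as not detected, equalled 0.0922 to 0.118 CPM, and every member lay well above it. Mouse Tnf, which is not the transgene, was at normalised read counts of 139.8, 220.3 and 382 across TNF+ lungs 1 to 3, against 15.3, 13.4 and 31.1 across TNF- lungs 1 to 3. Some libraries stood apart. TNF- lung 1 held squamous epithelium markers at a summed normalised count of 108384, against 349 to 1005 in the other lungs, and skeletal muscle markers at 61444, against 962 to 2552. TNF+ lung 1 had 5.22% of its counts at Gm42418, a locus that overlaps ribosomal RNA, against 0.0774% to 0.274% elsewhere. With both lungs numbered 1 left out, 10 members passed the cutoff in place of 13, and 6064 of 19440 genes in place of 9096 of 19199.

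Cholesterol genes that passed the test were higher, and fatty acid genes that passed were lower, in TNF+ lungs. Of the 36 members, 13 (36.1%) passed the cutoff, an adjusted p below 0.05 by the quasi-likelihood test of edgeR, with 4 higher and 9 lower in TNF+ lungs. The background was wide, since 47.4% of the 19199 genes tested passed (24.0% higher, 23.4% lower), so the share of members past the cutoff was not above that of genes in general. All 4 that rose were among the 22 genes of the cholesterol arm, where no gene fell, and all 9 that fell were among the 14 genes of the fatty acid arm, where no gene rose. The 18.2% of the cholesterol arm that rose was below the 24.0% of all genes tested that were higher. In the fatty acid arm 64.3% fell, above the 23.4% of all genes tested that were lower. The median log2 fold change, TNF+ over TNF-, was 0.10 over the cholesterol arm and -0.55 over the fatty acid arm, against 0.03 over all genes tested; no test between the arms was run. Between the genotypes the normalised counts of 7 members did not overlap and were higher in TNF+ lungs, those of 11 did not overlap and were lower, and those of 18 overlapped. Over all genes tested, 58.7% did not overlap (30.5% higher, 28.2% lower).

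**Figure D1:**
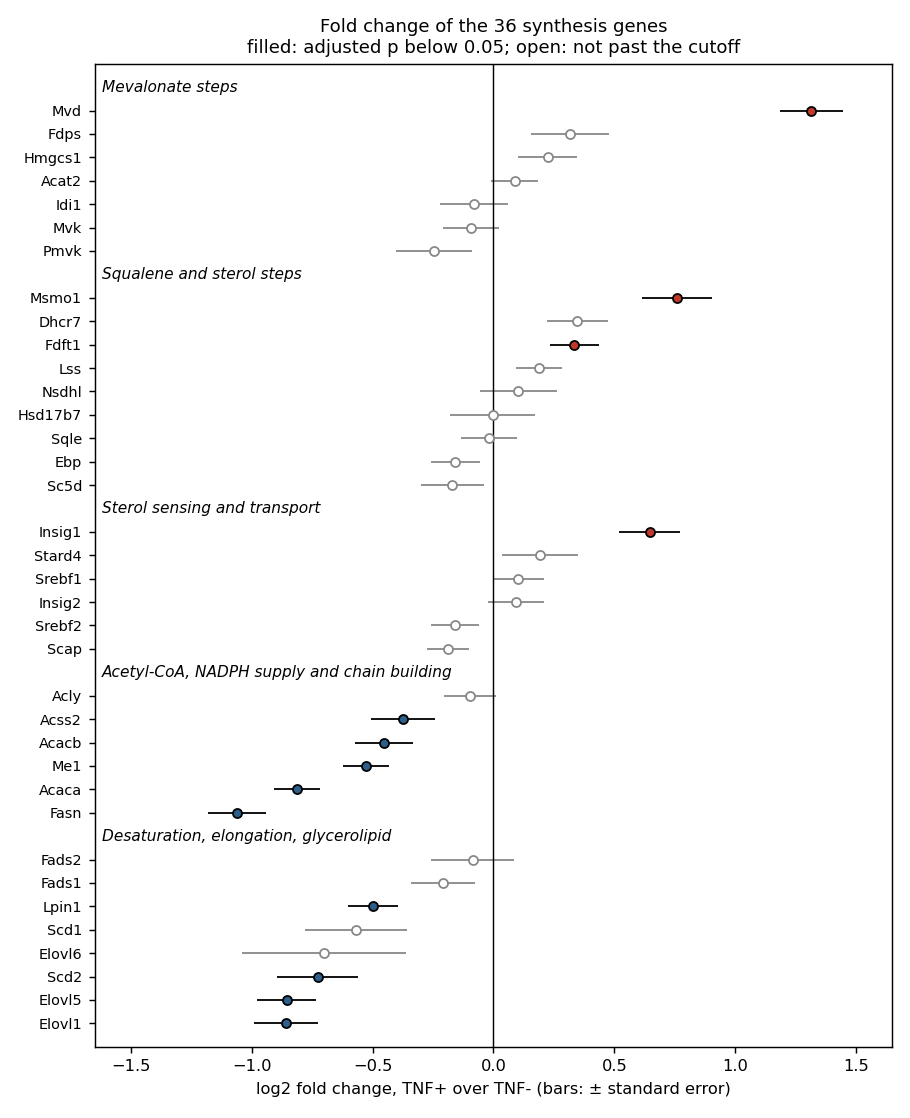
Log2 fold change of each of the 36 genes, TNF+ over TNF- (x axis), with its standard error as a bar, grouped by role; filled points passed the adjusted p cutoff of 0.05. The 4 filled points to the right of 0 are all in the upper, cholesterol groups, and the 9 to the left are all in the lower, fatty acid groups, from Mvd at 1.31 to Fasn at -1.06.

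The start regions of the genes are shown because SREBP, NF-Y and Sp1 are known to meet at promoters of this pathway. The stretches run from 250 bases before to 50 bases after an annotated start, 300 bases in all, and were taken by gene symbol from a RefSeq table of build GRCm38.p6. That table held 39 promoters of 29 members; Fads1, Fdft1, Fdps, Scd1, Scd2, Sqle and Stard4 were not in it. Printed are the only member with the SREBP letters TCACNCCAC (Hmgcs1), the 3 members that rose and had an entry (Mvd, Msmo1, Insig1), and 3 of the 8 that fell and had an entry (Fasn, Elovl5, Acaca), picked after their values were seen. The Acaca window, which lies inside the annotated gene, holds none of the marked letters. Capitals mark TCACNCCAC and CCAAT, the NF-Y letters, on either strand (ATTGG is CCAAT read on the other strand).
Hmgcs1, chr13:119690101-119690400, plus strand: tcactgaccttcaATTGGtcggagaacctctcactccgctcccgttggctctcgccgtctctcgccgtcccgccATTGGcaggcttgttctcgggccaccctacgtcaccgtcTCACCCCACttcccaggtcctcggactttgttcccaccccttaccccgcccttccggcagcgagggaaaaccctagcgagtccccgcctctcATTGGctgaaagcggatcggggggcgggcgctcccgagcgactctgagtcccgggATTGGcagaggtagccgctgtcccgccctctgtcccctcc
Mvd, chr8:122443373-122443672, minus strand: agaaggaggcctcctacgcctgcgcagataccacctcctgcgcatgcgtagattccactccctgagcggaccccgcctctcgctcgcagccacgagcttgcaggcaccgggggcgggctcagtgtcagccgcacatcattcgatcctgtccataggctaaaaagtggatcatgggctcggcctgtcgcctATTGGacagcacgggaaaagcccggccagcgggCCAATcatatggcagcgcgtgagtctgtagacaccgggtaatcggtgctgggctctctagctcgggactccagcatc
Msmo1, chr8:64733529-64733828, minus strand: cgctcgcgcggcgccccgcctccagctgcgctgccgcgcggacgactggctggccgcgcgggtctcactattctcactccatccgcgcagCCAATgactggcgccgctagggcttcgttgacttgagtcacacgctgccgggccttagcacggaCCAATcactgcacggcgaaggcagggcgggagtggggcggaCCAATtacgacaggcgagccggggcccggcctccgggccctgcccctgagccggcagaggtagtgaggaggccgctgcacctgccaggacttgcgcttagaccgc
Insig1, chr5:28071162-28071461, plus strand: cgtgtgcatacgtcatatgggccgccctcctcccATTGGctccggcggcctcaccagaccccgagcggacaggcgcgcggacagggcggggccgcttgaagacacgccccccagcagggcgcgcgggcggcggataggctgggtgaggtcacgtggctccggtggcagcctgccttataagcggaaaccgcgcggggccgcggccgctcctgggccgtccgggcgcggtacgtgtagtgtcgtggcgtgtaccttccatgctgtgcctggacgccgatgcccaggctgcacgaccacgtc
Fasn, chr11:120824498-120824797, minus strand: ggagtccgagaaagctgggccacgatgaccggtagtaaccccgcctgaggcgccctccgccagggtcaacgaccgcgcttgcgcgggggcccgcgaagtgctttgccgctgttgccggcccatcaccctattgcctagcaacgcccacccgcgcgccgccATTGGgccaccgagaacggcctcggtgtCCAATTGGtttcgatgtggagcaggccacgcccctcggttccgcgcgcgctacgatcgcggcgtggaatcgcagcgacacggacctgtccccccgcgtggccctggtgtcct
Elovl5, chr9:77917115-77917414, plus strand: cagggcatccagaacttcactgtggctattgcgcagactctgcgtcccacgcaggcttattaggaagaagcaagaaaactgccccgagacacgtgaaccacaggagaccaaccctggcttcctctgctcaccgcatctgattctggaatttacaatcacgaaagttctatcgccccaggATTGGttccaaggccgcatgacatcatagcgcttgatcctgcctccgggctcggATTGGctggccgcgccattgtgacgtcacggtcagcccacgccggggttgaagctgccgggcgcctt
Acaca, chr11:84195188-84195487, plus strand: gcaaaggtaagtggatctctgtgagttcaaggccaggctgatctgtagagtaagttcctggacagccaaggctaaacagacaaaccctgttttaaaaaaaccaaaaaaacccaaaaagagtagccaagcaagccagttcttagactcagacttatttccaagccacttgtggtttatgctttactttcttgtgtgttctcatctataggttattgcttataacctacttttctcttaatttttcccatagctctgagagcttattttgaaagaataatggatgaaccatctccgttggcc

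Searched on both strands, TCACNCCAC was found in 1 of the 29 members (3.45%), against 1.44% of the 27025 genes in the table. The match, TCACCCCAC, began 137 bases before the start of Hmgcs1, and the same promoter held CCAAT 4 times. CCAAT was present in 23 of the 29 members (79.3%), against 41.1% of all genes. The Sp1 letters GGGCGG were present in 22 (75.9%), against 38.2%, and the E-box CACGTG in 6 (20.7%), against 8.09%. Counted by promoter, CCAAT was in 61.5% of the 39 member promoters and in 37.4% of all 32851, and GGGCGG in 69.2% and 35.7%. All 7 squalene and sterol genes with an entry held both. Among the genes that rose, 3 of 3 with an entry held CCAAT and 3 of 3 held GGGCGG; among those that fell, 6 of 8 held CCAAT and 3 of 8 held GGGCGG; among those that did not pass, 14 of 18 held CCAAT and 16 of 18 held GGGCGG. The Fasn promoter had CCAAT at 3 places, with the stretch CCAATTGG reading as the motif on both strands, and no GGGCGG. Only 1 pair of matches to different motifs shared bases. Searched on the forward strand alone, CCAAT was found in 12 members and 23.7% of all genes. These counts describe letters in a window and carry no test.

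Among the 7 mevalonate genes, Mvd alone passed the cutoff, and it moved further than any other member. Mvd encodes mevalonate diphosphate decarboxylase, which makes isopentenyl diphosphate, and lies at chr8:122433601-122443422 of GRCm38. Its normalised read counts were 1230.2, 1126 and 932 across TNF+ lungs 1 to 3, against 424, 473 and 424 across TNF- lungs 1 to 3. Every TNF+ lung was above every TNF- lung, and the gene was 2.49-fold higher (log2 fold change 1.31, SE 0.13, adjusted p = 0.000125). The gene 671 bases beyond its 3′ end on the same strand, Cyba, rose as well. Cyba encodes a subunit of the phagocyte oxidase, and its counts were 16838, 18786 and 12562 across TNF+ lungs 1 to 3, against 2004, 2678 and 3156 across TNF- lungs 1 to 3 (log2 fold change 2.62, adjusted p = 4.83e-05). The exons of the pair do not overlap, Mvd shared no 100-base window with another gene, and whether reads beyond an annotated end entered the Mvd count was not tested.

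Hmgcs1, the HMG-CoA synthase that commits acetyl-CoA to mevalonate, did not pass. Its counts were 1544, 1266 and 1632 across TNF+ lungs 1 to 3, against 1350.2, 1144 and 1308 across TNF- lungs 1 to 3, and the genotypes overlapped (log2 fold change 0.22, SE 0.12, adjusted p = 0.161). The other mevalonate genes, Acat2, Mvk, Pmvk, Idi1 and Fdps, had log2 fold changes from -0.25 to 0.32, and none passed. Pmvk, phosphomevalonate kinase, passed under 1 of its alternatives, without TNF+ lung 2 (log2 fold change -0.45, adjusted p = 0.0161). Fdps counts did not overlap between genotypes (adjusted p = 0.139), but 26.7% of its exon length is shared with Gm43738 on the same strand, so its count is uncertain. Acat2 and Idi1 likewise had 28.9% and 21.9% of their 100-base windows repeated in other genes.

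In the squalene and sterol steps, 2 of 9 genes rose and none fell. Msmo1, which removes methyl groups from lanosterol-derived sterols (chr8:64718139-64733792), had counts of 1543, 1305 and 1213 across TNF+ lungs 1 to 3, against 658, 887 and 853 across TNF- lungs 1 to 3. The lowest TNF+ lung stood above the highest TNF- lung, and the gene was 1.69-fold higher (log2 fold change 0.76, SE 0.14, adjusted p = 0.00327). Fdft1, squalene synthase (chr14:63145150-63179578), had counts of 1346, 1314 and 1171 across TNF+ lungs 1 to 3, against 989, 1095 and 954 across TNF- lungs 1 to 3. These did not overlap, but the change was small, 1.26-fold (log2 fold change 0.33, SE 0.10, adjusted p = 0.0256). It missed the cutoff without TNF+ lung 1 (adjusted p = 0.13), TNF+ lung 2 (0.0728), TNF- lung 1 (0.0907) or TNF- lung 3 (0.0612), and with scaling to total counts only (0.0561).

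Fdft1 also shares 774 exon bases, 18.3% of its exon length, with Ctsb, which is read from the opposite strand. Ctsb, the lysosomal protease cathepsin B, had counts of 76207, 75711 and 57039.6 across TNF+ lungs 1 to 3, against 15770.1, 16509 and 16342 across TNF- lungs 1 to 3 (log2 fold change 2.10, adjusted p = 3.67e-05). The library kit marked strand, but the strand setting of the counting is not given in the sources used here, and whether Ctsb reads entered the Fdft1 count was not tested.

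Sqle, squalene epoxidase and a rate-limiting step, did not pass. Its counts were 914, 935 and 809 across TNF+ lungs 1 to 3, against 806, 884 and 1004 across TNF- lungs 1 to 3, overlapping in full (log2 fold change -0.02, SE 0.12, adjusted p = 0.903). The remaining sterol genes, Lss, Nsdhl, Hsd17b7, Ebp, Sc5d and Dhcr7, had log2 fold changes from -0.17 to 0.35. Dhcr7, which performs the last step to cholesterol and is named after its values were seen, had counts of 839.9, 955 and 729 across TNF+ lungs 1 to 3, against 637, 711 and 636 across TNF- lungs 1 to 3. No TNF- lung reached a TNF+ lung, and the test fell just short (log2 fold change 0.35, SE 0.13, adjusted p = 0.0512). It passed without TNF+ lung 3 (adjusted p = 0.0295), with a minimum of 10 counts in every lung (0.0468) and with robust dispersion (0.0455).

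Of the 6 sterol sensing and transport genes, Insig1 alone passed. INSIG1 retains the SCAP and SREBP complex in the endoplasmic reticulum, and its gene (chr5:28071363-28078662) is itself a target of SREBP. Its counts were 1746, 1275 and 1594 across TNF+ lungs 1 to 3, against 1039.7, 942 and 968 across TNF- lungs 1 to 3. All TNF+ lungs were above all TNF- lungs, and the gene was 1.56-fold higher (log2 fold change 0.65, SE 0.13, adjusted p = 0.00386). Its relative Insig2, which performs the same retention, had counts of 584, 543 and 615 across TNF+ lungs 1 to 3, against 601, 523 and 510.1 across TNF- lungs 1 to 3, with the genotypes overlapping (log2 fold change 0.09, SE 0.12, adjusted p = 0.544).

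Neither SREBP gene passed. Srebf1, whose products mainly drive fatty acid genes, had counts of 3189.5, 2996 and 3684 across TNF+ lungs 1 to 3, against 2918, 3197 and 3079.9 across TNF- lungs 1 to 3 (log2 fold change 0.10, SE 0.11, adjusted p = 0.456). Srebf2, which mainly drives cholesterol genes, had counts of 6419, 6536 and 5793 across TNF+ lungs 1 to 3, against 6866, 6898 and 7174 across TNF- lungs 1 to 3 (log2 fold change -0.16, SE 0.10, adjusted p = 0.213). Srebf1 overlapped between genotypes, while Srebf2 was lower in every TNF+ lung without passing. Scap, the escort of both, had the same pattern as Srebf2, at 2226, 2490.2 and 2367 across TNF+ lungs 1 to 3, against 2683, 2758 and 2630.2 across TNF- lungs 1 to 3 (log2 fold change -0.19, SE 0.09, adjusted p = 0.107). Stard4, a carrier of cholesterol between membranes, had a log2 fold change of 0.19 (adjusted p = 0.346). These are transcript levels; the cut, active SREBP proteins were not measured.

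The balance within 3 gene pairs was tested per lung, as the log2 ratio of normalised counts. Insig1 to Insig2 was 1.40 ± 0.17 in TNF+ lungs and 0.85 ± 0.07 in TNF- lungs (mean ± SD, n = 3 each), a difference of 0.54 with no overlap (two-sided exact permutation test, p = 0.1, adjusted over the 3 pairs 0.2). Srebf1 to Srebf2 differed by 0.26 (exact permutation p = 0.2, adjusted p = 0.2) and Scd1 to Scd2 by 0.15 (exact permutation p = 0.2, adjusted p = 0.2). With 3 lungs against 3 the smallest p this test can give is 0.1.

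**Figure D2:**
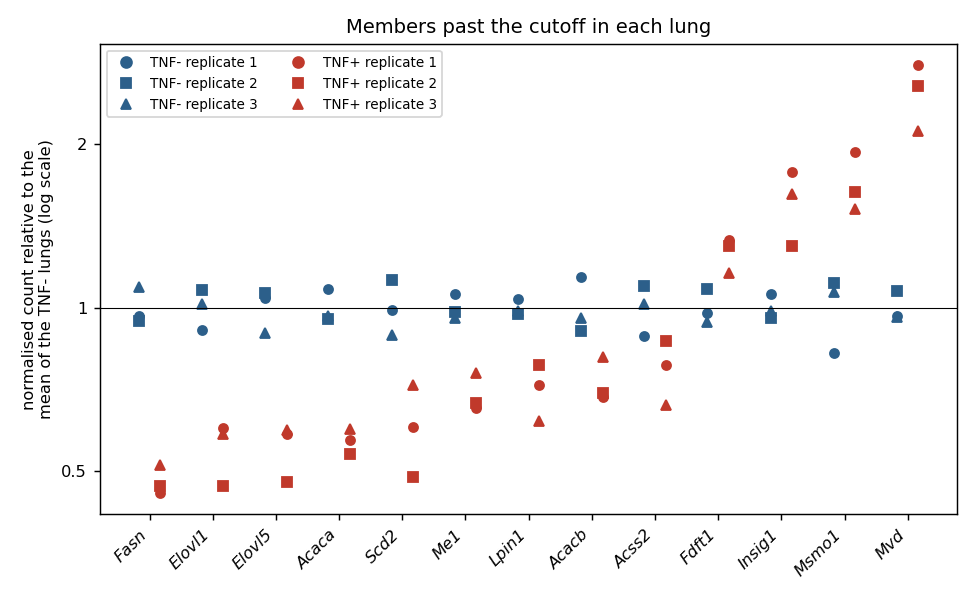
Normalised read count of the 13 members that passed the cutoff in each lung, divided by the mean of the 3 TNF- lungs (y axis, log scale); each point is a lung, with the symbol giving its number. In all 13 genes the 3 TNF+ lungs lie on the same side of the 3 TNF- lungs, at 45.5% to 51.2% of the TNF- mean for Fasn and 211% to 279% for Mvd.

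Every member that fell belonged to the fatty acid arm. Of the 6 genes that supply acetyl-CoA and NADPH and build the chain, 5 fell and Acly did not pass. Fasn, the fatty acid synthase that makes palmitate (chr11:120805846-120824547), had counts of 12183, 12571 and 13713 across TNF+ lungs 1 to 3, against 25781, 25321 and 29181 across TNF- lungs 1 to 3. The TNF+ lungs held 45.5% to 51.2% of the TNF- mean, and the gene was 2.09-fold lower (log2 fold change -1.06, SE 0.12, adjusted p = 0.000264). Acaca, the cytosolic acetyl-CoA carboxylase that feeds Fasn with malonyl-CoA (chr11:84129672-84401651), had counts of 2003, 1886 and 2101 across TNF+ lungs 1 to 3, against 3798, 3349.6 and 3386 across TNF- lungs 1 to 3. The groups were far apart relative to their spread, and the gene was 1.76-fold lower (log2 fold change -0.81, SE 0.10, adjusted p = 0.000306). Of the 100-base windows of Acaca, 23.7% occur in other annotated genes such as Gm5182.

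Acacb, the mitochondrial acetyl-CoA carboxylase whose product curbs fatty acid oxidation (chr5:114146535-114250761), had counts of 815, 831 and 966 across TNF+ lungs 1 to 3, against 1355, 1079 and 1143 across TNF- lungs 1 to 3. They did not overlap (log2 fold change -0.45, SE 0.12, adjusted p = 0.0159), although the call was lost without TNF+ lung 2 (adjusted p = 0.0559). Me1, the malic enzyme that yields NADPH (chr9:86581371-86695953), had counts of 1279, 1305 and 1483 across TNF+ lungs 1 to 3, against 2075, 1919 and 1872 across TNF- lungs 1 to 3. Its TNF+ lungs were close together and all lower (log2 fold change -0.53, SE 0.09, adjusted p = 0.00249). Acss2, which makes acetyl-CoA from acetate (chr2:155517948-155585724), had counts of 835, 922 and 703 across TNF+ lungs 1 to 3, against 942, 1166 and 1081 across TNF- lungs 1 to 3. The gap was narrow (log2 fold change -0.37, SE 0.13, adjusted p = 0.0459), and the call was lost without TNF+ lung 1 (adjusted p = 0.078), TNF+ lung 3 (0.12), TNF- lung 2 (0.145) or TNF- lung 3 (0.0792), and with the replicate number as a block (0.0577).

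Acly, the ATP citrate lyase that makes acetyl-CoA from citrate and is named after its values were seen, was at 5807, 5583 and 5655 across TNF+ lungs 1 to 3, against 6166, 6657 and 5408 across TNF- lungs 1 to 3. The genotypes overlapped (log2 fold change -0.10, SE 0.11, adjusted p = 0.486).

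Among the 8 genes of desaturation, elongation and glycerolipid synthesis, 4 fell and none rose. Elovl1, an elongase of very long saturated chains (chr4:118428093-118432953), had counts of 6276, 4906 and 6116 across TNF+ lungs 1 to 3, against 9482, 11259 and 10603 across TNF- lungs 1 to 3. It was 1.81-fold lower, with wide separation (log2 fold change -0.86, SE 0.13, adjusted p = 0.00116). Elovl5, an elongase of polyunsaturated chains (chr9:77917364-77984519), had counts of 2634, 2151 and 2687 across TNF+ lungs 1 to 3, against 4695, 4789 and 4040.5 across TNF- lungs 1 to 3. Its change was of the same size (log2 fold change -0.86, SE 0.12, adjusted p = 0.000808).

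Lpin1, a phosphatidic acid phosphatase of the glycerolipid route (chr12:16535669-16610966), had counts of 1377, 1495 and 1182 across TNF+ lungs 1 to 3, against 1982, 1860.2 and 1885 across TNF- lungs 1 to 3. It was lower in every TNF+ lung (log2 fold change -0.50, SE 0.10, adjusted p = 0.00543). Elovl6, which elongates palmitate and is named after its values were seen, was at 193, 154 and 253 across TNF+ lungs 1 to 3, against 352, 173 and 451 across TNF- lungs 1 to 3. TNF- lung 2 lay within the TNF+ range, and the gene did not pass (log2 fold change -0.70, SE 0.34, adjusted p = 0.123) in the main test. It passed without that lung (log2 fold change -1.01, adjusted p = 0.0179) and in DESeq2 with all lungs (-0.73, 0.0411). Fads1 and Fads2, the delta-5 and delta-6 desaturases of polyunsaturated fatty acids, had log2 fold changes of -0.21 and -0.09 and did not pass.

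The stearoyl-CoA desaturases, which place a double bond in stearate and palmitate, lie in a cluster on chromosome 19, Scd2 at chr19:44293674-44306864 and Scd1 at chr19:44394455-44407879. Scd2 counts were 12104, 9796 and 14465 across TNF+ lungs 1 to 3, against 19828, 22541 and 17823 across TNF- lungs 1 to 3. They did not overlap (log2 fold change -0.73, SE 0.17, adjusted p = 0.00829). Scd1 counts were 29014, 22147 and 36913 across TNF+ lungs 1 to 3, against 46753, 48079.8 and 35816 across TNF- lungs 1 to 3. Here TNF+ lung 3 stood above TNF- lung 3, and the test fell short (log2 fold change -0.57, SE 0.21, adjusted p = 0.0555). Scd1 passed without TNF+ lung 3 (log2 fold change -0.78, adjusted p = 0.0175) or TNF- lung 3 (-0.69, 0.0366), in DESeq2 (-0.59, 0.00356) and in limma-voom (-0.59, 0.0403). Scd1 had 2.58% of its 100-base windows in Scd3, Scd2 or another gene, and Scd3 and Scd4, which are no members, were lower too (log2 fold changes -0.83 and -0.87, adjusted p = 0.00833 and 0.00972).

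Levels were compared between genes per exon length, as RPKM (reads per kilobase of exon, scaled to library size). The fatty acid arm held the highest levels in TNF- lungs. Scd1 ranked highest of the 36, at 294 ± 45.4 RPKM in TNF- lungs and 198 ± 49.9 in TNF+ lungs (mean ± SD, n = 3 each), and kept that rank in TNF+ lungs. Elovl1 followed at 127 ± 10.9 RPKM in TNF- lungs and 69.9 ± 9.08 in TNF+ lungs, Scd2 was at 121 ± 14.3 RPKM in TNF- lungs and 73.3 ± 14.1 in TNF+ lungs, and these neighbours did not differ beyond their spread. Fasn came next at 80.7 ± 6.36 RPKM in TNF- lungs and 38.7 ± 2.4 in TNF+ lungs.

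On the same scale Mvd moved from rank 20 to rank 10, at 7.83 ± 0.506 RPKM in TNF- lungs and 19.5 ± 2.69 in TNF+ lungs. Acaca moved from rank 23 to rank 30, at 6.79 ± 0.481 RPKM in TNF- lungs and 3.86 ± 0.208 in TNF+ lungs. The lowest levels in TNF- lungs were those of Fdps, at 1.13 ± 0.0989 RPKM in TNF- lungs and 1.41 ± 0.111 in TNF+ lungs, and Elovl6, at 1.67 ± 0.726 RPKM in TNF- lungs and 1.03 ± 0.256 in TNF+ lungs. Hsd17b7 was at 1.68 ± 0.301 RPKM in TNF- lungs, and Elovl6 did not differ from it or from Fdps there beyond the spread. Srebf2 stood above Srebf1 in both genotypes, at 32.1 ± 0.778 RPKM in TNF- lungs and 28.7 ± 1.83 in TNF+ lungs, against 18.0 ± 0.821 RPKM in TNF- lungs and 19.3 ± 2.08 in TNF+ lungs.

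**Figure D3:**
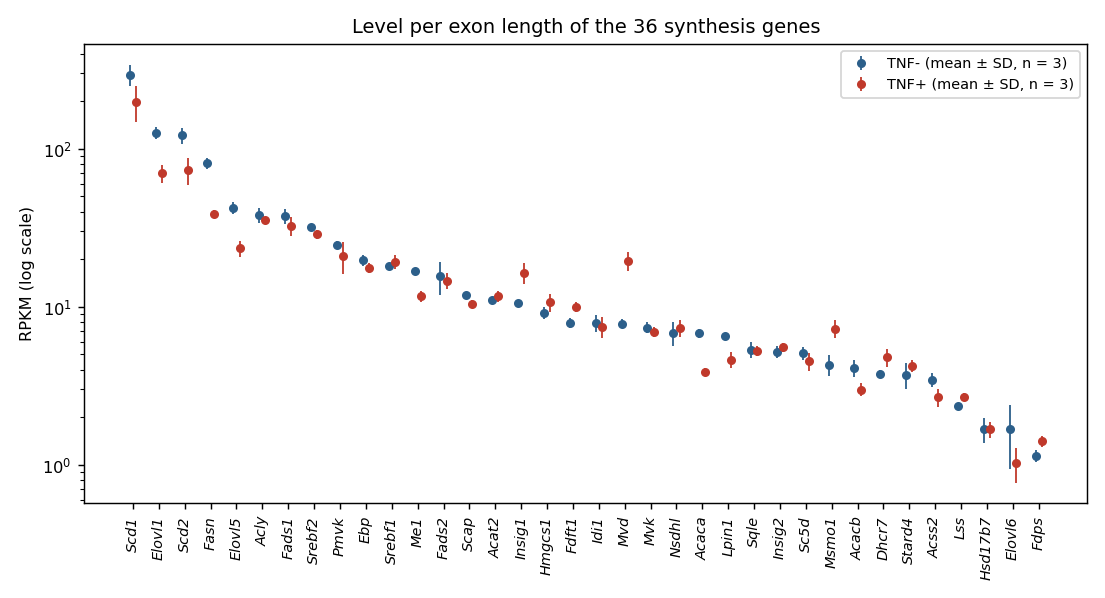
RPKM of the 36 genes (y axis, log scale), ordered by level in TNF- lungs; points are means and bars SD over 3 lungs of each genotype. Scd1 is highest in both genotypes, and the largest gaps between the genotypes are at Mvd, where TNF+ is higher, and Fasn, where it is lower.

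Within a genotype no lung was the highest or the lowest over all members. TNF- lung 2 was the highest of its group in 20 of the 36 genes (12 of 22 in the cholesterol arm) and the lowest in 8 (3 of 22), and TNF- lung 3 was the lowest in 16. TNF+ lung 3 was the highest of its group in 15 of the 36 genes and the lowest in 15, and TNF+ lung 2 in 14 and 13. In the fatty acid arm, TNF+ lung 3 was the highest of the TNF+ lungs in 8 of 14 genes, and TNF+ lung 2 the lowest in 7. The members with the widest spread in TNF- lungs were Elovl6, with a coefficient of variation of 43.5%, Fads2, with 23.9%, and Stard4, with 19.0%. Fasn, Acaca and Mvd had 7.88%, 7.09% and 6.47%.

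Fat cells make fatty acids, and their markers moved with the fatty acid arm in part of the lungs. The summed normalised count of 9 fat cell markers was 401, 265 and 4055 across TNF+ lungs 1 to 3, against 3655, 2649 and 5539.5 across TNF- lungs 1 to 3. Of the 7 markers with a test, 3 fell (Pck1, Cidec and Cidea) and none rose, and Lep and Ucp1 were at 0 in some lung. The sum of TNF+ lungs 1 and 2 lay below every TNF- lung and that of TNF+ lung 3 within the TNF- range. Adipoq was at 17.1, 12.4 and 327 across TNF+ lungs 1 to 3, against 319, 227 and 584 across TNF- lungs 1 to 3. In TNF+ lung 3, 4 of the 7 tested markers (Adipoq, Cfd, Plin1 and Retn) were within the TNF- range, and the 3 that fell were below it. Cidec was at 93.6, 86.9 and 382 across TNF+ lungs 1 to 3, against 627, 491 and 889 across TNF- lungs 1 to 3. In TNF+ lung 3 Fasn was at 51.2% of the TNF- mean, Acaca at 59.9%, Elovl1 at 58.5%, Elovl5 at 59.6%, Lpin1 at 61.9% and Scd2 at 72.1%, each below every TNF- lung. Scd1 was at 84.8% there. With TNF+ lungs 1 and 2 left out, 7 members passed, Mvd and Insig1 higher and Acaca, Elovl1, Elovl5, Fasn and Lpin1 lower, in a fit where the remaining TNF+ lung was assumed to vary like the TNF- lungs. Msmo1, Fdft1, Scd2, Me1, Acacb and Acss2 did not pass there, with log2 fold changes of 0.57, 0.18, -0.50, -0.43, -0.33 and -0.62 beside 0.76, 0.33, -0.73, -0.53, -0.45 and -0.37 with all lungs. The part of fat cells in the fold changes was not tested.

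**Figure D4:**
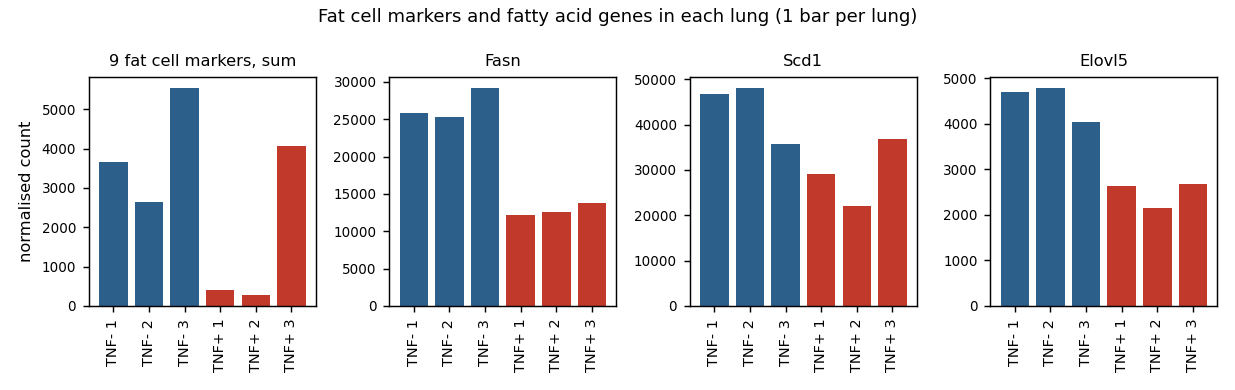
Normalised read counts (y axes, from 0) of the summed 9 fat cell markers, Fasn, Scd1 and Elovl5, with 1 bar per lung. The marker sum of TNF+ lung 3 lies within the TNF- range while its Fasn and Elovl5 bars, though the highest of the TNF+ lungs, are below every TNF- bar, and its Scd1 bar is above that of TNF- lung 3.

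Markers of other cells that use these pathways also differed between the genotypes. The sum of 8 alveolar type 2 markers was 634903, 532517 and 498529 across TNF+ lungs 1 to 3, against 699602, 843760.0 and 742984 across TNF- lungs 1 to 3, 0.729 of the TNF- mean, with 2 of 8 lower (Sftpb and Abca3), none higher and none at 0. Fibroblast markers that include the lipid droplet protein gene Plin2 summed to 7758, 9898 and 6974 across TNF+ lungs 1 to 3, against 24391, 24461 and 17431 across TNF- lungs 1 to 3, with 3 of 4 lower and Plin2 itself at 4152, 6837 and 3244 across TNF+ lungs 1 to 3, against 3262, 3356 and 2837 across TNF- lungs 1 to 3 (adjusted p = 0.0807). The sum of 6 macrophage markers was 82748, 91126 and 60882 across TNF+ lungs 1 to 3, against 4614, 4882 and 5670.1 across TNF- lungs 1 to 3, and all 6 rose. Alveolar type 1, club and endothelial markers were lower in all 5, 3 and 3 genes, at 0.363, 0.281 and 0.533 of their TNF- means. All 4 B and plasma cell markers rose (log2 fold changes from 0.79 for Ms4a1 to 5.16 for Jchain), 1 of 2 T cell markers rose, and of 6 alveolar macrophage markers 2 rose (Marco and Chil3) and 4 fell. The part of these cell types in the fold changes of the members was not tested.

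Genes of the same pathways that are not members were counted by lists chosen with earlier results of these data known. Of 70 with a test, 15 rose and 22 fell (52.9%, beside the 47.4% of all genes). Among 30 further synthesis genes 4 rose and 13 fell. Dgat2, which makes triglyceride, was at 254, 217 and 336 across TNF+ lungs 1 to 3, against 971, 601 and 1089 across TNF- lungs 1 to 3 (log2 fold change -1.72, SE 0.25, adjusted p = 0.000878). Elovl7, Scd4 and Lpin3 fell as well, with log2 fold changes of -1.25, -0.87 and -0.85 (adjusted p = 0.00549, 0.00972 and 0.0202). Lpin3 missed the cutoff without TNF+ lung 1 (adjusted p = 0.0592), TNF+ lung 3 (0.061), TNF- lung 1 (0.0616) or TNF- lung 2 (0.0655).

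The cholesterol genes in that list went in both directions; they are named here after their values were seen. Cyp51, the lanosterol demethylase, rose (log2 fold change 0.80, SE 0.16, adjusted p = 0.004). Tm7sf2, a sterol reductase, fell (log2 fold change -0.43, SE 0.13, adjusted p = 0.0265).

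In SREBP processing and sterol uptake, 4 of 9 genes rose and 3 fell. Lipa, the lysosomal acid lipase that frees cholesterol from its esters, was at 7429.9, 8946 and 6161 across TNF+ lungs 1 to 3, against 2106, 1968 and 1766 across TNF- lungs 1 to 3 (log2 fold change 1.95, SE 0.15, adjusted p = 4.16e-05). Mbtps2, a protease that cuts SREBP, rose (log2 fold change 0.58, adjusted p = 0.0169), while Vldlr and Scarb1, receptors for lipoproteins, fell (-0.77 and -0.54, adjusted p = 0.00551 and 0.00132). Mbtps1, also a protease that cuts SREBP and named after its values were seen, fell (log2 fold change -0.45, adjusted p = 0.011). Its mean normalised count was 3301 in TNF+ and 4497 in TNF- lungs, and that of Mbtps2 was 311 and 207. Mbtps2 missed the cutoff without TNF+ lung 2 (adjusted p = 0.0635) or TNF- lung 2 (0.0625).

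Among LXR and efflux genes, 7 of 13 rose and 1 fell. LXR is the receptor for oxysterols that turns on cholesterol export. Apoe, which carries exported cholesterol, was at 72979.6, 59696 and 71679.9 across TNF+ lungs 1 to 3, against 15068, 12603 and 14573 across TNF- lungs 1 to 3 (log2 fold change 2.27, SE 0.15, adjusted p = 2.15e-05). Ch25h, the maker of 25-hydroxycholesterol, which blocks SREBP processing, was at 427, 464 and 600.4 across TNF+ lungs 1 to 3, against 83.1, 93.9 and 140.4 across TNF- lungs 1 to 3 (log2 fold change 2.23, SE 0.23, adjusted p = 0.000172). Abca1, the cholesterol exporter, rose (1.68, adjusted p = 0.000162), and Pltp, the phospholipid transfer protein, fell (-1.48, adjusted p = 6.07e-05). Apoe and Abca1 are also expressed by macrophages, whose 6 markers rose as given above.

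Fatty acid oxidation genes fell in 3 of 12 (25%) and rose in none, near the 23.4% of all genes tested that were lower. Ppara, the receptor that drives oxidation, was at 18.5, 47.6 and 29.3 across TNF+ lungs 1 to 3, against 113, 114 and 68.4 across TNF- lungs 1 to 3 (log2 fold change -1.61, SE 0.37, adjusted p = 0.00786), and Acadvl, which starts fatty acid oxidation in mitochondria, fell by less (-0.39, adjusted p = 0.0164). Of 6 further regulators of fatty acid synthesis, 2 fell (33.3%) and none rose. Mlxipl, which encodes the carbohydrate-sensing factor ChREBP that drives Fasn and Acaca, was at 63.3, 58.9 and 129 across TNF+ lungs 1 to 3, against 223, 196 and 259 across TNF- lungs 1 to 3 (log2 fold change -1.42, SE 0.31, adjusted p = 0.00654). Prkaa2, a catalytic subunit of the kinase AMPK, which inhibits acetyl-CoA carboxylase, fell too (-1.02, adjusted p = 0.000837). Prkaa1, also a catalytic subunit of AMPK and named after its values were seen, did not pass (0.08, adjusted p = 0.548). Its mean normalised count was 908 in TNF+ and 859 in TNF- lungs, and that of Prkaa2 was 272 and 550. Acadvl missed the cutoff without TNF- lung 2 (adjusted p = 0.0523).

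**Figure D5:**
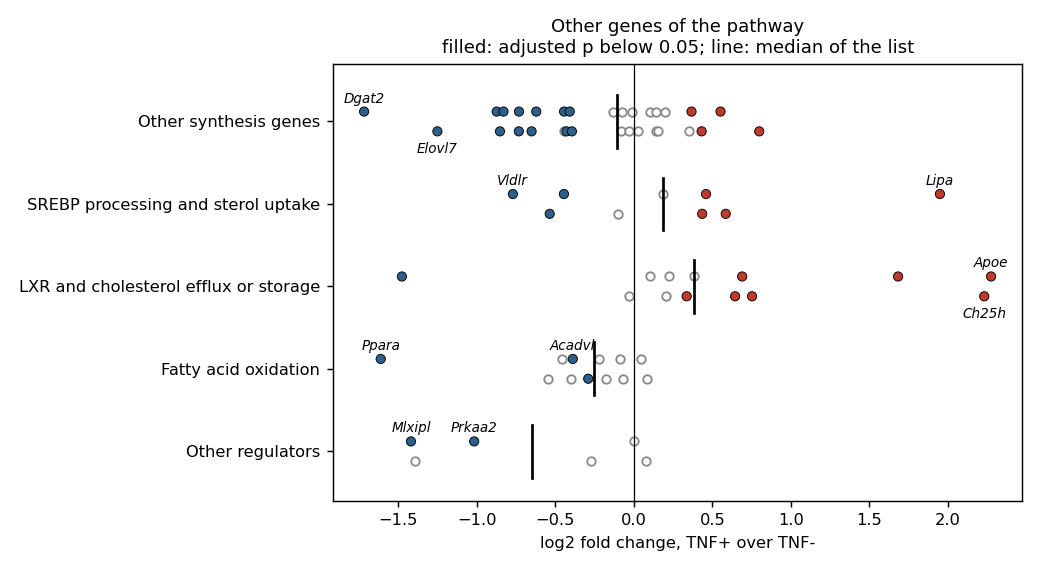
Log2 fold change, TNF+ over TNF- (x axis), of the 70 tested pathway genes that are not members, by list; filled points passed the adjusted p cutoff of 0.05, open points did not, and the short line is the median of the list. Synthesis, oxidation and regulator genes that passed lie mostly or wholly to the left of 0, and LXR and efflux genes mostly to the right. Of the 12 oxidation genes 3 (25%) passed, all lower, near the 23.4% of all genes tested that were lower.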

How the data were processed

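Lungs of 3 TNF+ and 3 TNF- mice were sequenced once each. The authors deposited raw read counts per gene symbol; the submitters' processing notes name Trimmomatic 0.36, STAR 2.5.2b, featureCounts and build GRCm38.p5, while the annotation release and the strand setting are not given in the sources used here. The members and all lists were chosen with earlier results of these data known.

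Counts were analysed in R 4.3.3 with edgeR 4.0.16 (filterByExpr, TMM scaling, quasi-likelihood test, genotype as the only term, Benjamini-Hochberg over 19199 genes). For normalised counts, each library was rescaled by its TMM-adjusted size to the mean size. Values per lung are given for Srebf1, Srebf2, Scap, Insig1, Insig2, Scd1, Scd2, Fasn, Hmgcs1 and Sqle, for up to 4 further called members per role with the largest change, and other lists give up to 4 called genes each. DESeq2 1.42.0 and limma-voom (limma 3.58.1) were alternatives, as were other scalings, filters and left-out lungs. All 3 tools were tested on simulated data, where DESeq2 recovered the most true changes and also made the most false calls. Exon lengths, neighbours within 1000 bases and shared 100-base windows came from GENCODE annotation of GRCm38. Replicates differed beyond sampling noise. Some genes of the lists are not reported here.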

Additional observations from a re-analysis of the deposited data

How the results depend on the processing

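No value past the cutoff changed direction under any alternative. Idi1, Sqle, Nsdhl, Hsd17b7, Srebf1 and Fads2, none of which passed, changed sign under 1 to 4 alternatives each, within log2 fold changes of -0.27 to 0.25. Of the results per gene, 62 values lost and 13 gained the cutoff, most of them under the limit on fold size or with lungs left out. With an added minimum absolute log2 fold change of 1, 4320 genes (22.5% of those tested), 2 members (Mvd higher and Fasn lower, 1 in each direction) and 10 other pathway genes passed. With TNF+ lungs 1 and 2 left out, 4027 genes, 7 members (2 higher, 5 lower) and 17 other pathway genes passed; with both lungs numbered 1 left out, 24 other pathway genes passed. Fewer lungs entered these fits. CCAAT was found in 12 members on the forward strand alone in place of 23. Leaving out each lung in turn gave 7347 to 9164 genes, 11 to 14 members (3 to 5 higher, 8 to 9 lower) and 27 to 34 other pathway genes, and the differences in log2 ratio ran from 0.12 to 0.36 for Srebf1 to Srebf2, 0.45 to 0.62 for Insig1 to Insig2 and 0.098 to 0.21 for Scd1 to Scd2. DESeq2 called 9233 genes and 15 members, adding Scd1 and Elovl6, and limma-voom 9032 genes and 14 members, adding Scd1. Aside from the limit on fold size, Mvd, Insig1, Fasn, Acaca, Elovl1, Elovl5 and Lpin1 passed under every alternative.

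Same-numbered mice are different animals, and their deviations from the group means did not go together (r across genes -0.15, -0.0043 and -0.24 for numbers 1 to 3, against -0.060 to 0.21 for other pairs), so the numbers were not taken as pairs. With the replicate number as a block, 7686 genes, 12 members (4 higher, 8 lower, without Acss2) and 32 other pathway genes passed.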

Other observations

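Several genes beside the synthesis routes were singled out after their values were seen. Mylip, a known target of LXR, rose from 842 ± 49.0 to 1316 ± 215 normalised counts (mean ± SD, n = 3 each; edgeR adjusted p = 0.00449). Nr1h3, the gene of LXR alpha, and Soat1, which stores cholesterol as ester, had log2 fold changes of 0.75 and 0.69 (adjusted p = 0.0007 and 0.000594). All 3 lay above every TNF- lung in every TNF+ lung, with macrophage markers higher in the same lungs; their part in these values was not tested.

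Among further fatty acid genes, Fads3, a relative of the desaturases Fads1 and Fads2, was at 2949.6, 2733 and 2976 across TNF+ lungs 1 to 3, against 4566, 4839 and 4974 across TNF- lungs 1 to 3 and fell (log2 fold change -0.73, SE 0.09, adjusted p = 0.000416), whereas Fads1 and Fads2 did not pass. Lpin2, a phosphatase of the same family as Lpin1, was at 3155, 2914 and 2949 across TNF+ lungs 1 to 3, against 5478, 4924 and 4582 across TNF- lungs 1 to 3 and fell (log2 fold change -0.73, SE 0.10, adjusted p = 0.000736). Pparg, the gene of a regulator of fat storage, was at 227, 261 and 235 across TNF+ lungs 1 to 3, against 207, 273 and 242 across TNF- lungs 1 to 3, with the genotypes overlapping (log2 fold change 0.00, adjusted p = 0.997). Acsl1, which activates fatty acids with CoA, rose (log2 fold change 0.37, SE 0.12, adjusted p = 0.0316), and Acsl5, which performs the same step, fell (log2 fold change -0.39, SE 0.11, adjusted p = 0.0216).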
